A study of Mus musculus with 24 samples.

Results

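The 10 genes followed here encode Eph receptors and ephrins of the embryonic mouse cortex. Their symbols (Epha3, Epha4, Epha5, Epha7, Ephb1, Ephb2, Efna5, Efnb1, Efnb2 and Efnb3) were matched to Ensembl identifiers, and all 10 were found among the 39017 genes of the deposited count tables. They are 6 receptors and 4 ephrins, and each passed the filter on low counts in every comparison. RNA-seq had been made from cells sorted from the cerebral cortex of E15.5 embryos, in 24 libraries. Sorting on PAX6 and on TBR2, the protein made from Eomes, gave 3 populations: PAX6+ cells, which are radial glia by their labels, TBR2+ cells, which are intermediate progenitors by their labels, and cells negative for both (PAX6-TBR2-), taken by the study as neurons. Each population was taken from knockout (KO) embryos with the genotype Emx1Ires-Cre; Prdm16flox/flox, and from embryos called WT here, which were Prdm16flox/flox without the Cre allele, with 4 libraries in each of the 6 groups. Prdm16 encodes a zinc finger regulator of transcription that radial glia express, and the study compared cortical cells with and without it. Both genotypes carry the floxed alleles and only KO carries the Cre allele, so an effect of that allele and the loss of Prdm16 cannot be told apart. Emx1-driven Cre recombines in cells born in the dorsal telencephalon and spares interneurons, which are born ventrally. The replicates are called biological, but no embryo or litter is given, so the p-values measure the spread between these libraries.

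Eph receptors are tyrosine kinases that bind ephrins on the surface of neighbouring cells. EphA receptors bind mainly the membrane-anchored ephrin-As, EphB receptors bind mainly the transmembrane ephrin-Bs, and EphA4 also binds ephrin-Bs. Signals run both into the cell that carries the receptor and, for many pairs, into the cell that carries the ephrin. In the developing cortex the family is known for guiding axons and migrating neurons, for setting up area borders and topographic maps, and for acting on progenitors at the ventricular surface.

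The promoter windows of the 3 members whose transcripts passed the KO against WT test in some population are shown first, since they locate the genes the results turn on. They come from RefSeq (GRCm38.p6), whose promoter table matched 9 of the 10 members, all but Efnb3. Each runs from 250 bases before the transcript start to 50 bases after it, on the gene's strand. Capitals mark matches on either strand to 3 motifs, none of which overlap here. One is the GC box, spelled GGGCGG. The next is the CCAAT box, searched by the letters of its name, and the last is the TATA box, spelled TATAAA. Capitals that read ATTGG are a CCAAT box of the opposite strand, and those that read CCGCCC a GC box of the opposite strand. The first of the 2 overlapping Epha7 windows is given.
Epha3, chr16:63864126-63864425, minus strand: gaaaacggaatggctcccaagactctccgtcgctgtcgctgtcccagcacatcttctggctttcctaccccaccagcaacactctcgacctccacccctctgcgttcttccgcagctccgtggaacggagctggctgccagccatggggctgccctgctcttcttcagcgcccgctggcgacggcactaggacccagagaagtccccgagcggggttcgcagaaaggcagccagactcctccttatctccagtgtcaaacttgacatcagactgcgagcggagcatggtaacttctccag
Ephb1, chr9:102354644-102354943, minus strand: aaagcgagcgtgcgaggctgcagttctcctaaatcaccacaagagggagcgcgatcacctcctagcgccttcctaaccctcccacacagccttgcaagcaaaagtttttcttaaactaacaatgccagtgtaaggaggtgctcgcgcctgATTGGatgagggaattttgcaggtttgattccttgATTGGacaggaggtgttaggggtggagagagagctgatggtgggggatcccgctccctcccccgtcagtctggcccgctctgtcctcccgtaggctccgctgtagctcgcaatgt
Epha7, chr4:28812881-28813180, plus strand: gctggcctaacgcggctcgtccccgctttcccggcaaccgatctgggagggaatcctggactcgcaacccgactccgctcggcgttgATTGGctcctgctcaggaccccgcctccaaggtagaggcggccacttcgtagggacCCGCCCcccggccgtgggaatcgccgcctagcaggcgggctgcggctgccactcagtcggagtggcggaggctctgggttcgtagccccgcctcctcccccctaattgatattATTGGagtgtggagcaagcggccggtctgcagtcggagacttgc
The Epha3 window held none of the 3 motifs and 18 CpG dinucleotides. The Ephb1 window held 2 CCAAT boxes and 14 CpGs, and the Epha7 window 1 GC box, 2 CCAAT boxes and 28 CpGs. Among 32851 RefSeq promoter windows of the same length, 35.7% held a GC box, 37.4% a CCAAT box and 13.6% a TATA box, and the median window had 7 CpGs. These matches describe the letters of the windows and say nothing of which factor binds there.

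The genes lie on 9 chromosomes of GRCm38, the assembly of mm10. Epha3 (ENSMUSG00000052504) spans 63543534 to 63864175 on chromosome 16, Ephb1 (ENSMUSG00000032537) 101922128 to 102354693 on chromosome 9, and Epha7 (ENSMUSG00000028289) 28813131 to 28967499 on chromosome 4. In GENCODE M21, 9 of the 10 members share no exonic base with another annotated gene. Ephb1 shares 152 bases, 2.17% of its exonic length, with the non-coding gene Gm26846 on the opposite strand. The strand setting of the counting is not given in the sources used here.

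Levels are counts per M counts of the library (CPM), scaled by the trimmed mean of M-values (TMM) over all 24 libraries. Library totals ran from 4.95 to 30.03 M counts, with a median of 7.69 M, and the deepest was WT PAX6-TBR2- replicate 4. Genes encoded in the mitochondrion took 11.3% to 39.3% of the counts. The sorted populations carried their defining markers. Pax6 averaged 423 CPM in KO PAX6+ and 435 CPM in WT PAX6+ libraries, and Eomes 877 CPM in KO TBR2+ and 931 CPM in WT TBR2+ libraries. Pax6 was not confined to PAX6+ cells, with 231 CPM in KO TBR2+ and 242 CPM in WT TBR2+ libraries. In PAX6-TBR2- libraries it averaged 27.2 CPM in KO and 30.0 CPM in WT. TBR2+ libraries also carried neuronal transcripts, with Tbr1 at 450 CPM in KO and 418 CPM in WT. The 8 neuron markers summed to 5093 to 6795 CPM in KO and 5507 to 6583 CPM in WT TBR2+ libraries. Their sums in PAX6-TBR2- libraries were 6989 to 7763 CPM in KO and 7223 to 8148 CPM in WT. In PAX6-TBR2- libraries the 9 interneuron markers summed to 492 to 1178 CPM in KO and 369 to 1006 CPM in WT, and all 9 had fold changes above 0, of which none passed the test and 4 passed with the replicate number as a block. The part of interneurons in the PAX6-TBR2- results was not tested. Prdm16, the targeted gene, had 225, 181, 183 and 160 CPM in the 4 KO PAX6+ libraries, against 268, 244, 289 and 210 CPM in the 4 WT PAX6+ libraries. Its log2 fold change was -0.43 (SE 0.12, edgeR adjusted p = 0.058), and the adjusted p was 0.000495 with the replicate number as a block. It was 0.0200 in DESeq2, 0.00565 with no filter, 0.0192 without KO replicate 1 and 0.0235 without WT replicate 4, but 0.370 with all 24 libraries in 1 fit. Those 5 settings that passed were among 14 alternatives, and the other 9 missed the threshold. Of the 8 fits that left out 1 library only 2 passed, and the highest adjusted p was 0.232, without WT replicate 3. Prdm16 averaged 52.3 CPM in KO TBR2+ and 55.6 CPM in WT TBR2+ libraries. In PAX6-TBR2- cells the means were 19.0 CPM in KO and 25.3 CPM in WT. The exons between the loxP sites are not named in the labels, so a gene-level count may include RNA that the deletion leaves.

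**Figure D1:**
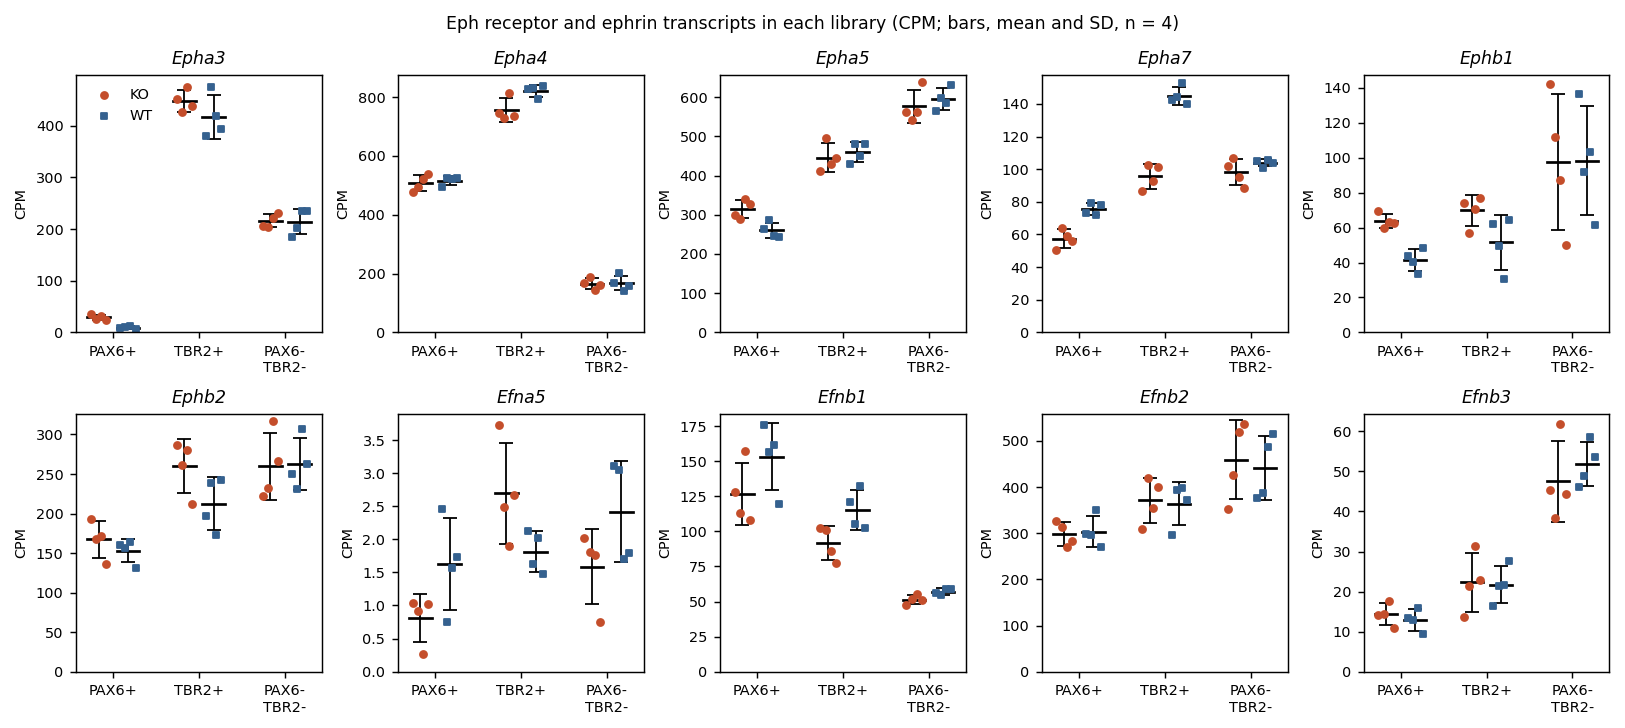
Level of each of the 10 genes in all 24 libraries, in CPM on axes that start at 0. Circles are KO and squares WT libraries, placed by sorted population; the horizontal bars are means and the error bars SD (n = 4). Epha3 is low in PAX6+ libraries and separates by genotype there, Epha7 separates by genotype in TBR2+ libraries, and Ephb1 in PAX6+ libraries.

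Across the 3 WT populations the members fell into different patterns, described first because they set the levels against which KO is read. Library names carry 1 prefix per population, so handling cannot be told apart from population in any of these comparisons. Of the 10 members, 8 passed the edgeR test at an adjusted p under 0.05 for TBR2+ over PAX6+ (7 higher, 1 lower), where 63.2% of all genes tested passed. For PAX6-TBR2- over PAX6+, 9 passed (7 higher, 2 lower), against 66.6% of all genes. For PAX6-TBR2- over TBR2+, 8 passed (4 higher, 4 lower), against 49.0% of all genes. The members' shares are thus read against a background in which 49.0% to 66.6% of genes differ between populations.

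Epha3 had the widest span of the 10 members. It averaged 9.10 ± 2.45 CPM in WT PAX6+, 417 ± 42.2 CPM in WT TBR2+ and 215 ± 25.1 CPM in WT PAX6-TBR2- libraries (SD, n = 4 each). The fitted level was 45.5-fold higher in TBR2+ than in PAX6+ (adjusted p = 3.62e-14) and 23.5-fold higher in PAX6-TBR2- than in PAX6+ (adjusted p = 6.24e-12). Epha4, a receptor with both ephrin-A and ephrin-B ligands, averaged 516 ± 14.7 CPM in WT PAX6+, 822 ± 20.1 CPM in WT TBR2+ and 167 ± 24.7 CPM in WT PAX6-TBR2- libraries. Its log2 fold change was 0.69 for TBR2+ over PAX6+ and -2.29 for PAX6-TBR2- over TBR2+ (SE 0.08 and 0.11). Epha7 was also highest in TBR2+, at 145 ± 5.67 CPM, with 75.6 ± 3.54 CPM in PAX6+ and 104 ± 2.08 CPM in PAX6-TBR2- cells. Epha5 rose at each step, with 260 ± 19.9 CPM in PAX6+, 460 ± 24.7 CPM in TBR2+ and 595 ± 27.8 CPM in PAX6-TBR2- libraries. These 4 EphA receptors passed the test in all 3 pairs of WT populations, as did Ephb2, Efnb1 and Efnb3. In a single pair 49.0% to 66.6% of all genes passed, and the share that passed in all 3 was not counted.

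Both EphB receptors of the set were higher in PAX6-TBR2- than in PAX6+ cells. Ephb1 averaged 41.2 ± 6.26 CPM in PAX6+, 51.5 ± 15.6 CPM in TBR2+ and 98.2 ± 31.2 CPM in PAX6-TBR2- libraries. The PAX6-TBR2- level was higher than that of PAX6+ (log2 fold change 1.25, SE 0.19, adjusted p = 2.98e-05), while TBR2+ over PAX6+ missed the threshold (0.34, SE 0.18, adjusted p = 0.105). That step passed in only 1 of 13 alternatives, without WT TBR2+ replicate 3 (adjusted p = 0.00412). The other 12 missed it, with an adjusted p of up to 0.288, without WT TBR2+ replicate 4. The Ephb1 libraries of PAX6-TBR2- cells were spread widely, from 61.3 to 137 CPM in WT. Ephb2 averaged 153 ± 14.7 CPM in PAX6+, 213 ± 33.8 CPM in TBR2+ and 263 ± 32.5 CPM in PAX6-TBR2- libraries. Its step between TBR2+ and PAX6-TBR2- passed narrowly (adjusted p = 0.0466) and was lost in 8 of 13 alternatives. Those include leaving out WT TBR2+ replicate 1 or 3 or WT PAX6-TBR2- replicate 1, 3 or 4, with adjusted p-values of 0.0571 to 0.160, so no order is read from it.

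The ephrin-B ligands ran in opposite directions. Efnb1 averaged 153 ± 23.9 CPM in WT PAX6+, 115 ± 14.2 CPM in WT TBR2+ and 57.1 ± 2.21 CPM in WT PAX6-TBR2- libraries. Its log2 fold changes were -0.40 for TBR2+ over PAX6+ (SE 0.12, adjusted p = 0.00939) and -0.999 for PAX6-TBR2- over TBR2+ (SE 0.11, adjusted p = 1.93e-06). Efnb3 averaged 12.9 ± 2.66 CPM in PAX6+, 21.7 ± 4.55 CPM in TBR2+ and 51.7 ± 5.49 CPM in PAX6-TBR2- libraries, with log2 fold changes of 0.76 and 1.27 for the same pairs (SE 0.18 and 0.15). Across all 24 libraries, Efnb1 and Efnb3 had the lowest Pearson correlation of the 45 pairs of members (-0.87), and Efnb3 and Epha5 the highest (0.88). These correlations are across libraries that share sorted populations and are given as a description. Efnb2 averaged 304 ± 33.4 CPM in PAX6+, 364 ± 47.1 CPM in TBR2+ and 442 ± 69.6 CPM in PAX6-TBR2- libraries. Only its difference between the outer populations held under all 13 alternatives (log2 fold change 0.56, SE 0.12, adjusted p = 0.000933), and TBR2+ over PAX6+ was lost in 7 of 13. Those include leaving out WT PAX6+ replicate 1, 2 or 4 or WT TBR2+ replicate 2 or 3, with adjusted p-values of 0.0763 to 0.108. Efna5, the only ephrin-A of the set, had 9 to 50 counts in the WT libraries and mean levels of 1.63, 1.81 and 2.42 CPM in PAX6+, TBR2+ and PAX6-TBR2- cells. It passed in no pair of populations.

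**Figure D2:**
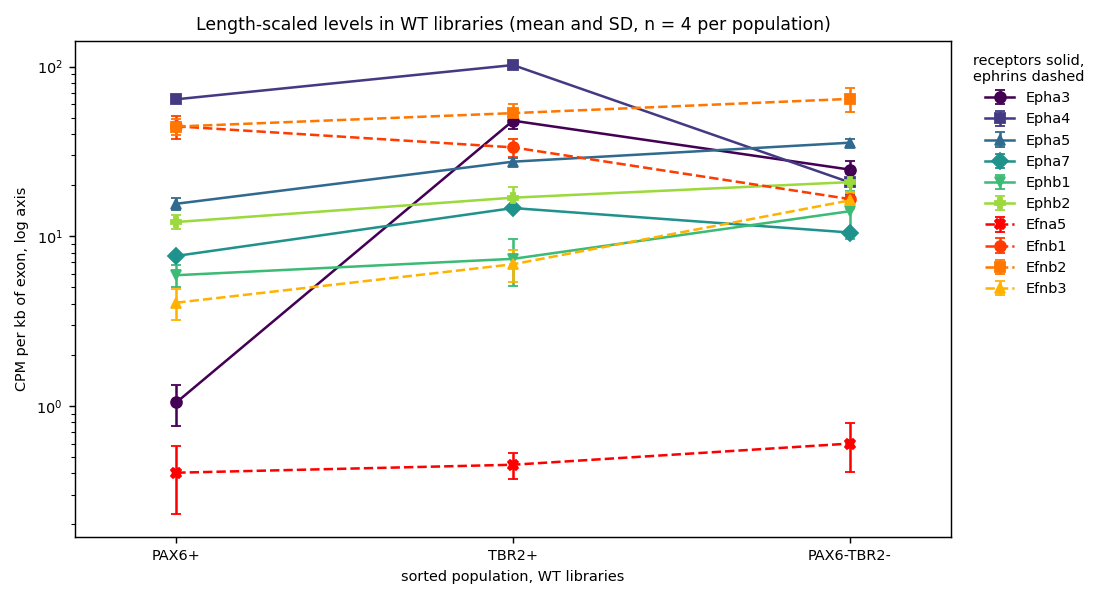
Mean level of each gene per kb of exon in the WT libraries, in CPM per kb on a log axis, by sorted population; error bars are SD (n = 4), receptors have solid and ephrins dashed lines. Epha3 is the ninth gene in PAX6+ and the third in TBR2+, and Efna5 is lowest in all 3 populations.

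Divided by the length of all annotated exons, the levels were set side by side between genes. Which transcripts of a gene were expressed was not examined, so the order of genes is approximate. In WT PAX6+ libraries Epha4 was highest at 64.1 CPM per kb, ahead of Efnb1 at 44.4 and Efnb2 at 44.3 CPM per kb, which did not differ beyond their spread. Epha3 was ninth there at 1.05 CPM per kb, ahead of Efna5 alone. In WT TBR2+ libraries Epha4 reached 102 CPM per kb, with Efnb2 at 53.1 and Epha3 at 48.0 CPM per kb. In WT PAX6-TBR2- libraries Efnb2 led at 64.4 CPM per kb, ahead of Epha5 at 35.6 and Epha3 at 24.7 CPM per kb. The KO libraries had the same leading gene in each population: Epha4 at 63.0 CPM per kb in PAX6+ and 93.8 CPM per kb in TBR2+, and Efnb2 at 67.0 CPM per kb in PAX6-TBR2- cells.

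KO was then compared with WT within each population. In PAX6+ cells 2 of the 10 members passed without a replicate block, Epha3 and Ephb1, both higher in KO, where 3.64% of the 14212 genes tested passed. The median log2 fold change of the 10 members was 0.06, and that of all genes tested was 0.00. With the replicate number as a block, which pairs the PAX6+ libraries, 4 members passed, Epha5 and Epha7 being added. Over all genes 1045 then passed. In TBR2+ cells 1 member passed, Epha7, which was lower in KO, against 1.76% of 12687 genes, with a median of 0.02 for the members and 0.00 for all genes. In PAX6-TBR2- cells no member passed in edgeR, none had an unadjusted p under 0.05, and none passed in DESeq2, against 0.00774% of 12928 genes, that is 1 gene. In bulk libraries, fewer cells with a transcript and less of it per cell cannot be told apart.

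**Figure D3:**
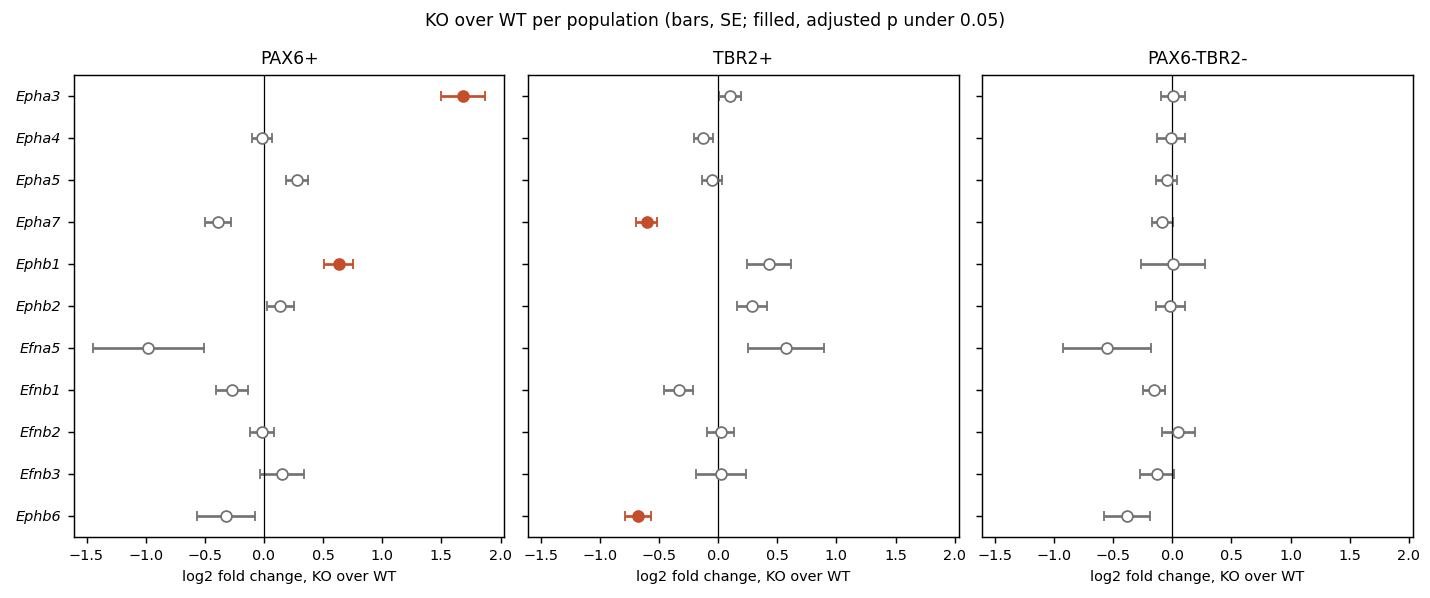
Log2 fold change of KO over WT in PAX6+, TBR2+ and PAX6-TBR2- cells for the 10 genes and for Ephb6. Points are edgeR estimates without a replicate block, from 4 KO and 4 WT libraries, and bars are their SE. Filled points have an adjusted p under 0.05: Epha3 and Ephb1 in PAX6+, Epha7 and Ephb6 in TBR2+.

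Epha3, an EphA receptor, had the largest KO effect of the members. It had 35.1, 26.7, 32.1 and 24.01 CPM in the 4 KO PAX6+ libraries, against 7.63, 9.86, 12.2 and 6.72 CPM in the 4 WT PAX6+ libraries. Every KO library was above every WT library, with no value between 12.2 and 24.01 CPM. The log2 fold change was 1.68 (SE 0.19, edgeR adjusted p = 3.25e-05), a 3.21-fold higher level in KO, resting on 282 to 365 counts per KO library and 66 to 194 per WT library. The call held in all 14 alternatives, with log2 fold changes of 1.57 to 1.85. Among these, the recovered reads equal the raw counts in PAX6+ libraries, so that setting only repeats the reported fit.

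No such difference was found for Epha3 outside PAX6+ cells. It averaged 448 ± 21.5 CPM in KO TBR2+ and 417 ± 42.2 CPM in WT TBR2+ libraries (log2 fold change 0.10, SE 0.09, adjusted p = 0.761). Among PAX6-TBR2- libraries the means were 216 ± 12.6 CPM in KO and 215 ± 25.1 CPM in WT (0.00, SE 0.10, adjusted p = 0.997). The differences of the KO effect were tested themselves as interactions on the log2 scale, and gains in CPM were not compared. TBR2+ minus PAX6+ was -1.57 (SE 0.20, adjusted p = 0.000173), and Epha3 was the only member that passed, where 0.612% of all genes did. PAX6-TBR2- minus PAX6+ was -1.67 (SE 0.21, adjusted p = 9.70e-05), again with no other member passing, where 0.775% of all genes did. The Epha3 level of KO PAX6+ libraries, 29.5 ± 5.02 CPM, remained far under those of the other populations.

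Because Epha3 is abundant in TBR2+ cells, markers of other cell types were read beside its rise in PAX6+ cells. The 6 intermediate progenitor markers summed to 324 to 441 CPM in KO PAX6+ and 357 to 513 CPM in WT PAX6+ libraries, 5 of the 6 had fold changes below 0, and 2 passed as lower. Eomes itself averaged 46.3 ± 10.8 CPM in KO PAX6+ and 77.7 ± 22.6 CPM in WT PAX6+ libraries. The 8 neuron markers summed to 370 to 383 CPM in KO and 356 to 436 CPM in WT, with 1 passing as lower and none as higher. The 8 radial glia markers, those of the sorted population itself, summed to 3235 to 3835 CPM in KO and 2846 to 3321 CPM in WT PAX6+ libraries. Of them 6 had fold changes above 0, 1 (Slc1a3) passed as higher, and 4 passed with the replicate block. Cajal-Retzius markers summed to 19.8 to 100 CPM in KO and 34.9 to 305 CPM in WT PAX6+ libraries. The 4 of them that were tested all lay below 0 (median log2 fold change -1.31), and none passed in edgeR or DESeq2, while 2 had an unadjusted p under 0.05 and 2 passed with the block. Among interneuron, glial precursor and meningeal markers, 1 of each list passed as lower (Gad2, Aqp4 and Col1a2). The part of these cell types in the Epha3 result was not tested.

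The genes whose levels over all 24 libraries were most like that of Epha3, among 11766 genes and on the log2(CPM + 1) scale, were Cacna2d1, Kdm5b and Afap1. Their Pearson correlations with Epha3 were 0.99, 0.987 and 0.98, and they rest mainly on the 3 populations that the libraries share. Cacna2d1, which encodes a calcium channel subunit, averaged 35.6 ± 4.71 CPM in KO PAX6+ and 19.97 ± 8.09 CPM in WT PAX6+ libraries (log2 fold change 0.83, SE 0.20, adjusted p = 0.0303). Afap1, which encodes an actin filament associated protein, averaged 51.7 ± 5.40 CPM in KO PAX6+ and 38.7 ± 1.91 CPM in WT PAX6+ libraries (0.42, SE 0.11, adjusted p = 0.0479). Kdm5b, which encodes a histone H3 lysine demethylase, averaged 157 ± 13.5 CPM in KO and 125 ± 10.1 CPM in WT (0.34, SE 0.10), and did not pass (adjusted p = 0.0884). The fold changes of these 3 genes in PAX6+ cells entered the correlation that chose them and are given as a description.

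Epha7, known in the cortex for a part in progenitor survival and area maps, was the member that fell in TBR2+ cells. It had 86.4, 103, 92.5 and 101 CPM in the 4 KO TBR2+ libraries, against 142, 144, 153 and 140 CPM in the 4 WT TBR2+ libraries. The groups did not overlap, and the highest KO value was 103 CPM against a lowest WT value of 140 CPM. The log2 fold change was -0.60 (SE 0.09, edgeR adjusted p = 0.0026), or 0.658 times the WT level, and the call held in all 14 alternatives. The mitochondrial share, 30.5% to 39.3% in KO TBR2+ and 24.7% to 33.1% in WT TBR2+ libraries, overlapped between the genotypes. All 7 Cajal-Retzius markers had fold changes above 0 in KO TBR2+ cells (median 0.60 on the log2 scale), with sums of 385 to 584 CPM in KO and 136 to 553 CPM in WT libraries. None of the 7 passed in edgeR or DESeq2, 3 had an unadjusted p under 0.05, and 3 passed with the replicate block. The 6 intermediate progenitor markers summed to 1694 to 2059 CPM in KO and 1940 to 2260 CPM in WT TBR2+ libraries. Of them 5 had fold changes below 0, none passed in edgeR, and 1 passed in DESeq2. Of the 7 radial glia markers tested, 5 had fold changes above 0, none passed in edgeR, and 2 passed in DESeq2. Of the 8 neuron markers, 4 had fold changes above 0 and 4 below. None of these 8 passed in edgeR, 1 passed in DESeq2, and 2 passed with the replicate block. The part of the mitochondrial share and of these cell types in the Epha7 result was not tested.

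In PAX6+ cells Epha7 had 50.6, 64.1, 59.3 and 56.1 CPM in KO libraries and 73.3, 79.1, 71.9 and 78.1 CPM in WT libraries. Here too the groups did not overlap, yet the edgeR test without a block gave an adjusted p of 0.065 (log2 fold change -0.39, SE 0.11). With the replicate number as a block, which the PAX6+ libraries bear out as a pairing, the adjusted p was 0.00525. Epha7 also passed there in DESeq2 (adjusted p = 0.0138) and with all 24 libraries in 1 fit (adjusted p = 0.00731). In PAX6-TBR2- cells Epha7 averaged 98.1 ± 8.04 CPM in KO and 104 ± 2.08 CPM in WT (-0.08, SE 0.09, adjusted p = 0.891). PAX6-TBR2- minus TBR2+ was 0.52 (SE 0.12, adjusted p = 0.216), so the KO effect was not shown to differ between them. No member passed in that comparison in edgeR, where 2 had an unadjusted p under 0.05, DESeq2 passed 1 member (Epha7, adjusted p = 0.0168), the replicate block passed the same member (adjusted p = 0.0328), and 0.0510% of all genes passed in edgeR.

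Fhod3, Gm26603 and Arfgef3 were the genes most like Epha7 over the 24 libraries (Pearson r 0.93, 0.911 and 0.901), again mainly across populations. Arfgef3 averaged 33.4 ± 4.11 CPM in KO TBR2+ and 88.6 ± 12.1 CPM in WT TBR2+ libraries (log2 fold change -1.41, SE 0.12, adjusted p = 1.92e-05). Fhod3, which encodes a formin that acts on actin filaments, averaged 59.6 ± 7.14 CPM in KO TBR2+ and 85.5 ± 7.24 CPM in WT TBR2+ libraries (-0.53, SE 0.11, adjusted p = 0.0226). Gm26603 did not pass in TBR2+ cells, with 87.1 ± 4.70 CPM in KO and 111 ± 1.54 CPM in WT (-0.36, SE 0.09, adjusted p = 0.0594). As with Epha3, these genes were chosen on the libraries that give their fold changes.

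**Figure D4:**
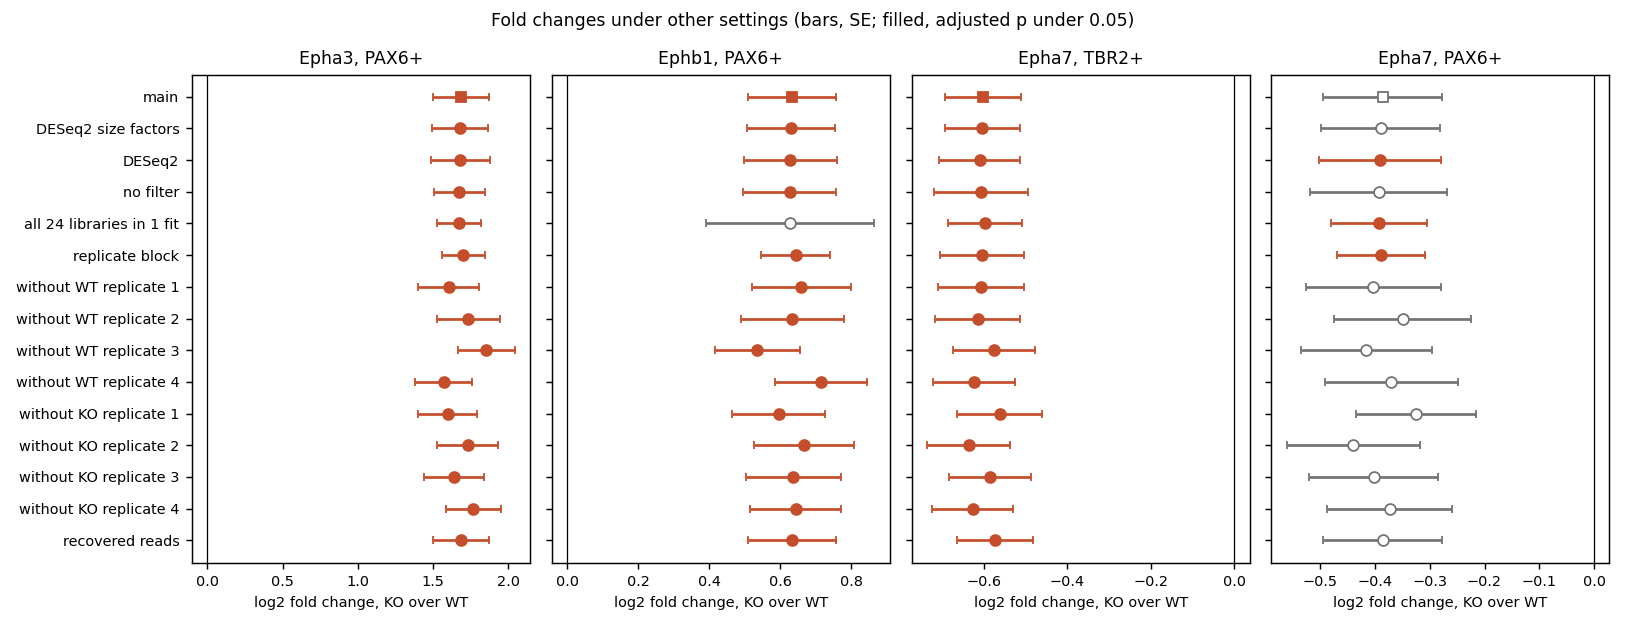
Log2 fold change of KO over WT for Epha3 in PAX6+, Ephb1 in PAX6+, Epha7 in TBR2+ and Epha7 in PAX6+ cells, in the reported fit (square, top line) and under each of 14 other settings (circles). For PAX6+ the recovered reads equal the raw counts, so that line repeats the reported fit. Bars are SE and filled points have an adjusted p under 0.05: Epha3 in PAX6+ and Epha7 in TBR2+ are filled on every line, Ephb1 in PAX6+ is open only with all 24 libraries in 1 fit, and Epha7 in PAX6+ is filled on 3 lines.

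Epha4 and Epha5, the other EphA receptors, passed in no KO comparison in edgeR without a block, and Epha5 passed in PAX6+ cells with it. Epha4 averaged 507 ± 27.2 CPM in KO and 516 ± 14.7 CPM in WT PAX6+ libraries, 756 ± 40.3 CPM in KO and 822 ± 20.1 CPM in WT TBR2+ libraries, and 166 ± 18.4 CPM in KO and 167 ± 24.7 CPM in WT PAX6-TBR2- libraries. Its log2 fold changes were -0.02, -0.13 and -0.01 in that order of populations (SE 0.08, 0.08 and 0.12). Epha5 had 300, 290, 340 and 329 CPM in KO PAX6+ libraries, against 263, 287, 245 and 245 CPM in WT PAX6+ libraries. Those groups did not overlap, although the closest KO and WT values were 290 and 287 CPM. The log2 fold change was 0.28 (SE 0.09, adjusted p = 0.158), and with the replicate block the adjusted p was 0.0289. Epha5 averaged 445 CPM in KO and 460 CPM in WT TBR2+ libraries, and 576 CPM in KO and 595 CPM in WT PAX6-TBR2- libraries, with overlapping groups in both.

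Ephb1, a receptor for ephrin-Bs, rose in PAX6+ cells. It had 69.4, 59.6, 63.1 and 62.4 CPM in the 4 KO PAX6+ libraries, against 43.6, 40.1, 33.2 and 48.0 CPM in the 4 WT PAX6+ libraries, with no overlap. The log2 fold change was 0.63 (SE 0.12, edgeR adjusted p = 0.00571), a 1.55-fold higher level in KO. No single library carried the call, and the highest adjusted p on leaving one out was 0.0237. With all 24 libraries in 1 fit the call was lost (log2 fold change 0.63, SE 0.24, adjusted p = 0.195), and the cause of the loss was not tested.

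In TBR2+ cells Ephb1 had 74.0, 57.1, 70.9 and 77.1 CPM in KO and 62.3, 49.2, 30.3 and 64.2 CPM in WT libraries. These groups overlapped, and the log2 fold change was 0.43 (SE 0.18, adjusted p = 0.353). It passed there with no filter (adjusted p = 0.0282) and with the replicate block (adjusted p = 0.0458). The PAX6-TBR2- values were 142, 112, 87.2 and 49.9 CPM in KO and 137, 91.6, 103 and 61.3 CPM in WT libraries (0.00, SE 0.27, adjusted p = 0.999). The KO effect was not shown to differ between populations: PAX6-TBR2- minus PAX6+ was -0.62 (SE 0.33, adjusted p = 0.765), with an adjusted p of 0.00804 under the replicate block, and TBR2+ minus PAX6+ was -0.20 (SE 0.24).

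Gm26846, the opposite-strand gene that shares exonic bases with Ephb1, was also the gene most like it over the 24 libraries (Pearson r 0.897). It averaged 14.9 ± 3.86 CPM in KO PAX6+ and 7.39 ± 1.39 CPM in WT PAX6+ libraries (log2 fold change 1.02, SE 0.20, adjusted p = 0.00702). With the strand setting not given, reads of the 2 genes cannot be told apart over the shared bases, which are 2.17% of the Ephb1 exons. The part of the shared bases in either change was not tested. Kcnv1, which encodes a modifying subunit of potassium channels, was the third most like gene (r 0.831) after Msra (r 0.843). Msra, which encodes a methionine sulfoxide reductase, averaged 23.9 ± 2.87 CPM in KO PAX6+ and 19.07 ± 2.88 CPM in WT PAX6+ libraries and did not pass (log2 fold change 0.33, SE 0.15, adjusted p = 0.362). Kcnv1 averaged 5.32 ± 1.75 CPM in KO PAX6+ and 0.825 ± 0.527 CPM in WT PAX6+ libraries (log2 fold change 2.75, SE 0.47, adjusted p = 0.00225). These 3 genes too were chosen on the libraries that give their fold changes, which are a description.

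Ephb2, the other EphB member, averaged 168 ± 23.4 CPM in KO and 153 ± 14.7 CPM in WT PAX6+ libraries, 260 ± 33.9 CPM in KO and 213 ± 33.8 CPM in WT TBR2+ libraries, and 260 ± 42.8 CPM in KO and 263 ± 32.5 CPM in WT PAX6-TBR2- libraries. The groups overlapped in every population. Its log2 fold changes were 0.14, 0.29 and -0.02 (SE 0.11, 0.12 and 0.12), and the smallest adjusted p was 0.360, in TBR2+ cells. In PAX6+ cells KO was above WT in 4 of 4 same-numbered pairs, with an adjusted p of 0.280 under the block.

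None of the 4 ephrins passed in any KO comparison. Efnb1, an X-linked ephrin-B, averaged 127 ± 22.0 CPM in KO and 153 ± 23.9 CPM in WT PAX6+ libraries, 91.7 ± 12.2 CPM in KO and 115 ± 14.2 CPM in WT TBR2+ libraries, and 51.4 ± 3.04 CPM in KO and 57.1 ± 2.21 CPM in WT PAX6-TBR2- libraries. The KO mean was the lower one in each population. The groups overlapped in each, and the smallest adjusted p was 0.249, in TBR2+ cells (log2 fold change -0.33, SE 0.12). In PAX6+ cells, where the numbers pair the libraries, KO was below WT in 4 of 4 pairs, and the adjusted p was 0.451 without and 0.0521 with the block (log2 fold change -0.27). Efnb2, an ephrin-B with roles in both vessels and neurons, had log2 fold changes of -0.02, 0.02 and 0.05 in PAX6+, TBR2+ and PAX6-TBR2- cells (SE 0.10, 0.11 and 0.14). Efnb3 averaged 14.3 ± 2.77 CPM in KO and 12.9 ± 2.66 CPM in WT PAX6+ libraries, 22.3 ± 7.26 CPM in KO and 21.7 ± 4.55 CPM in WT TBR2+ libraries, and 47.5 ± 10.02 CPM in KO and 51.7 ± 5.49 CPM in WT PAX6-TBR2- libraries. Its PAX6+ libraries were also higher in KO in 4 of 4 pairs, with an adjusted p of 0.574 under the block. Efna5 had 1.03, 0.920, 0.264 and 1.02 CPM in KO PAX6+ libraries, against 2.45, 0.753, 1.57 and 1.73 CPM in WT PAX6+ libraries. With 3 to 12 counts per KO and 11 to 28 per WT library, its log2 fold change of -0.98 had an SE of 0.47 (adjusted p = 0.418).

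The other 12 Eph and ephrin genes of the mouse were counted in the same fits. In PAX6+ cells 8 of them were tested and none passed in edgeR or DESeq2, against 3.64% of all genes in edgeR. Of these 8, 1 had an unadjusted p under 0.05, and their median log2 fold change was 0.03. In TBR2+ cells 6 were tested and 1 passed, against 1.76% of all genes. It was Ephb6, a family member whose kinase domain lacks catalytic activity. Ephb6 had 43.8, 38.8, 42.3 and 35.2 CPM in the 4 KO TBR2+ libraries, against 59.5, 67.1, 67.5 and 61.5 CPM in the 4 WT TBR2+ libraries, without overlap. Its log2 fold change was -0.68 (SE 0.11, edgeR adjusted p = 0.00406), and it kept its side of the threshold in all 14 alternatives. In PAX6-TBR2- cells 6 were tested, and none passed in edgeR or DESeq2 or had an unadjusted p under 0.05. Of all genes 0.00774% passed there in edgeR. Those left untested were low: Epha2, Epha6 and Epha8, which were tested in no population, averaged at most 1.71 CPM in any group.

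A list of 30 genes that act with Eph receptors and ephrins or downstream of them (exchange factors, adaptors, kinases, phosphatases and proteases) was read in the same way. In PAX6+ cells 28 were tested and 2 passed, Vav2 and Vav3, both higher in KO, against 3.64% of all genes, and the median log2 fold change of the list was -0.04. Vav proteins are exchange factors that Eph receptors can recruit. Vav3 had 4.03, 2.84, 4.75 and 4.34 CPM in KO PAX6+ libraries, against 2.19, 1.03, 0.692 and 0.611 CPM in WT PAX6+ libraries (log2 fold change 1.83, SE 0.38, adjusted p = 0.0104). Vav2 averaged 37.9 ± 3.60 CPM in KO PAX6+ and 26.6 ± 2.15 CPM in WT PAX6+ libraries (0.52, SE 0.12, adjusted p = 0.0211). The Vav2 call was lost without KO replicate 1 or 3 or without WT replicate 1 or 3, with adjusted p-values of 0.0586 to 0.0972. It was also lost with all 24 libraries in 1 fit (adjusted p = 0.0552). With the replicate number as a block, which pairs the PAX6+ libraries, 3 of the list passed, where 1045 of all genes did. These were Vav2, Vav3 and Kalrn.

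In TBR2+ cells 29 of the 30 were tested and 1 passed, against 1.76% of all genes. It was Kalrn, which encodes kalirin, an exchange factor placed downstream of EphB receptors in dendritic spines. Kalrn had 815, 695, 744 and 670 CPM in KO TBR2+ libraries, against 541, 603, 447 and 481 CPM in WT TBR2+ libraries (log2 fold change 0.49, SE 0.11, adjusted p = 0.0315). The groups did not overlap, but the call was lost without KO replicate 2 or 3 or without WT replicate 1, 3 or 4, with adjusted p-values of 0.0634 to 0.123. In PAX6+ cells Kalrn had 351, 301, 357 and 260 CPM in KO and 259, 251, 232 and 237 CPM in WT libraries (0.38, SE 0.11, adjusted p = 0.0654). That adjusted p was 0.00451 with the replicate block, 0.00637 without KO replicate 4, 0.0289 in DESeq2 and 0.0286 with no filter. These 4 were the only ones of 14 alternatives that passed. The other 10 missed the threshold, with an adjusted p of up to 0.226, without WT replicate 3. In PAX6-TBR2- cells all 30 were tested, and none passed in edgeR or DESeq2 or had an unadjusted p under 0.05.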

How the data were processed

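RNA-seq libraries of sorted mouse cortical cells, 24 in all, fell into 6 groups of 4 by their titles. Per the labels' protocols, RNA was amplified as cDNA before library construction, without molecular identifiers. STAR, cutadapt, featureCounts, FastQC and DESeq2 and the build mm10 appear in the submitters' processing notes. Of their versions, the annotation release and the use of strand in counting, each is not given in the sources used here. Raw deposited tables hold whole counts for each Ensembl identifier, and the 2 lanes of a library were added together. The deposited normalized tables hold a signal of the form of counts divided by a size factor. Their reads were recovered as whole multiples of the worth of 1 read (100% of values within a tolerance of 1e-06) and used as an alternative only, because outside PAX6+ they were 1.44 to 1.70 times the raw counts of a group. For PAX6+ they equal the raw counts of each library, so there this alternative tests nothing further. Of 39017 identifiers, 37693 were named with GENCODE M21. Libraries of 1 group differed by more than sampling noise (chi-square per degree of freedom 5.65 to 45.5 over 36 pairs).

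KO and WT were compared in edgeR 4.0.16 (R 4.3.3) by filterByExpr, TMM scaling and the two-sided quasi-likelihood test of glmQLFit and glmQLFTest over all genes, with Benjamini-Hochberg adjustment and calls at an adjusted p under 0.05. Adjusted p-values are from this test unless another setting is named. SE is the size of the log2 fold change divided by the square root of F. Fold changes come from the libraries compared, and CPM levels from scaling over all 24. Length is the union of exons. The scripts were tested on simulated data. Alternatives were DESeq2 size factors, DESeq2 1.42.0, no filter, all 24 libraries in 1 fit, a replicate block, each library left out and recovered reads. Same-numbered KO and WT libraries deviated together in PAX6+ (correlations 0.183 to 0.438, 4 of 4 over 0.1), but not in every pair of PAX6-TBR2- (0.0942 to 0.399) or TBR2+ (0.0446 to 0.410), so only PAX6+ was taken as paired. All 10 members are given, other Eph and ephrin genes and the 30 genes acting with them are named where they passed or where a comparison turns on them, and the 3 genes most like a member are given for members called in a KO comparison. Members and lists were chosen with earlier results of these data known. Counting error is a lower limit on technical error.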

Additional observations from a re-analysis of the deposited data

Results flagged for a closer look

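The Epha3 effect of KO differed between populations by a test of the difference itself: -1.57 on the log2 scale for TBR2+ minus PAX6+ and -1.67 for PAX6-TBR2- minus PAX6+. Both kept their side of the threshold in all 21 alternatives, and the PAX6+ libraries enter both. They are differences of log2 fold changes between populations of unlike Epha3 level, and gains in CPM were not compared.

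In 2 of 60 groups of 4 libraries examined (10 members in 6 groups), 1 library stood apart from the others; chance alone marks about 1 group in 20. Epha4 had 494 CPM in WT PAX6+ replicate 1, against 521 to 526 CPM in the other 3 libraries. Efna5 had 0.264 CPM in KO PAX6+ replicate 3, where it rests on 3 counts, in a group that reached 1.03 CPM.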

How the results depend on the processing

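No result reversed. With the replicate number as a block, the members called for KO over WT were 4 in PAX6+ (2 without it; Epha5 and Epha7 were added and no other member's call changed) and 2 in TBR2+ (1 without it; Ephb1 was added). Under the block 2 members were called for PAX6-TBR2- minus PAX6+ (1 without it) and 1 for PAX6-TBR2- minus TBR2+ (0 without it). In TBR2+ and PAX6-TBR2- the numbers were not taken as a pairing. For TBR2+, 2 of 4 same-numbered pairs correlated over 0.1, KO libraries correlated best with their own number in 2 of 4 cases and WT libraries in 4 of 4. For PAX6-TBR2-, 3 of 4 pairs correlated over 0.1, and KO libraries correlated best with their own number in 4 of 4 cases and WT libraries in 3 of 4. With the block, no member was called for KO over WT in PAX6-TBR2-. With no filter 2 members were called in TBR2+, and DESeq2 called 1 for PAX6-TBR2- minus TBR2+. Leaving out any library changed none of the counts of members called for KO over WT beyond 1.5 times.

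Over all genes, the calls in PAX6+ numbered 517, and 1045 with the block. In TBR2+ they were 223, against 357 by DESeq2, 728 with no filter and 720 with the block; they ranged from 121 without WT replicate 3 to 420 without KO replicate 1, and were 137 without WT replicate 1 and 139 and 142 on leaving out KO replicates 2 and 3. In PAX6-TBR2- they were 1, against 24 by DESeq2, 38 with no filter, 6 with all 24 libraries and 153 with the block, and 2 and 3 without WT and KO replicate 4. For the difference TBR2+ minus PAX6+ they were 89, against 163 by DESeq2, 329 with no filter, 323 with the block and 137 without KO TBR2+ replicate 1. For PAX6-TBR2- minus PAX6+ they were 117, against 219 with no filter and 332 with the block. For PAX6-TBR2- minus TBR2+ they were 7, against 27 by DESeq2, 126 with no filter and 210 with the block, and 3 to 4 without some single libraries. The cause of these shifts was not tested. Depth limits Efna5 most, at 3 to 50 counts per library.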

Other observations

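Family members outside the 10 also split by population, given here as levels without a test. Ephb4 averaged 38.9 CPM in KO PAX6+ and 38.4 CPM in WT PAX6+ libraries, against 8.09 to 10.3 CPM in the TBR2+ groups and 7.74 to 8.74 CPM in the PAX6-TBR2- groups. Ephb3 had the same order, with 18.4 CPM in KO PAX6+ and 17.95 CPM in WT PAX6+ libraries and 4.45 to 9.26 CPM in the other 4 groups. Efna4 was highest in TBR2+ cells, at 35.2 CPM in KO and 40.0 CPM in WT, and 10.5% of its exonic bases are shared with an antisense gene. Efna3 averaged 11.999 CPM in KO PAX6-TBR2- and 11.4 CPM in WT PAX6-TBR2- libraries, with 0.410 CPM in KO PAX6+ and 0.549 CPM in WT PAX6+ libraries, and 14.1% of its exonic bases are shared with an antisense gene.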
